A study of Mus musculus with 2 samples.

Results

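The genes described here are the adult globins, other red cell genes and the platelet chemokines, read in whole mouse liver of a Twist2-Cre control and a Twist2-Cre/A20fl/fl genotype. They are Hba-a1, Hba-a2, Hbb-bs, Hbb-bt, Hbb-b2, Alas2, Slc4a1, Pf4 and Ppbp, and their probes were found by gene symbol in the platform annotation. Of these 9 genes, 8 had a probe, 1 each, among 19318 genes with a symbol on the array. Hba-a1 was not analysed here. RNA came from the liver of 24-week-old mice of 2 genotypes, with 1 single-colour array each. The control carried Twist2-Cre alone. The other liver was Twist2-Cre/A20fl/fl, here called CKO, so both carried the Cre. Twist2-Cre expresses the recombinase from Twist2, a gene active in mesenchymal lineages, and whole liver also holds many other cells. The sources used here do not state whether an RNA came from 1 mouse or a pool, or whether the livers were flushed of blood.

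Adult haemoglobin is a tetramer of alpha and beta globin chains around haem, and globin transcripts persist in reticulocytes, the last red cell stage that still holds RNA. Alas2 encodes the erythroid form of the enzyme that starts haem synthesis, and Slc4a1 encodes band 3, the anion exchanger of the red cell membrane. Pf4 and Ppbp encode CXC chemokines stored in platelet granules, and platelets carry their transcripts over from megakaryocytes. The adult liver makes few blood cells of its own, so such transcripts in liver RNA are usually read as those of blood in its vessels or of blood formation outside the marrow. In a bulk sample, fewer cells of a type and less RNA per cell cannot be told apart.

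The adult beta globin genes Hbb-bs and Hbb-bt are neighbours in 1 cluster, and Ppbp and Pf4 are neighbours in a cluster of CXC chemokine genes. Their promoters are shown because these are the pairs whose members are compared below. Each sequence is the 150 bases before the annotated start in RefSeq (GRCm38.p6), read 5′ to 3′ on the gene's strand. They lie at chr7:103827929-103828078 (minus strand) for Hbb-bs, chr7:103813924-103814073 (minus strand) for Hbb-bt, chr5:90772285-90772434 (plus strand) for Pf4 and chr5:90768368-90768517 (plus strand) for Ppbp. Capitals mark matches on either strand. The motifs searched were GATAA for GATA factors, CCAAT for the box of that name, CACCC for erythroid Kruppel-like factors, TATAA for the TATA box and CCGGAA for ETS factors. Adjoining matches run together.
Hbb-bs: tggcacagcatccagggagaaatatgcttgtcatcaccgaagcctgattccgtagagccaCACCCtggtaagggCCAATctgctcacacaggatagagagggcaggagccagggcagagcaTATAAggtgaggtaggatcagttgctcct
Hbb-bt: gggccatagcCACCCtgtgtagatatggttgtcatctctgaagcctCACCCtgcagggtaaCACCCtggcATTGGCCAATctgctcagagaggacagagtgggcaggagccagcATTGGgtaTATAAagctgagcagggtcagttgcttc
Pf4: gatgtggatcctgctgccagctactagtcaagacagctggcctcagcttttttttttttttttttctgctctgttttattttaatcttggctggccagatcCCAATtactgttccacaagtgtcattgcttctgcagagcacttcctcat
Ppbp: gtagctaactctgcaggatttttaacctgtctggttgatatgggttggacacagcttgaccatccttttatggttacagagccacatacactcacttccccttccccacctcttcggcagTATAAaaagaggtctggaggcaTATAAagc

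The windows of Hbb-bs and Hbb-bt matched at 109 of 148 aligned bases (73.6%), while those of Hba-a1 and Hba-a2 matched at all 147 aligned bases. Hbb-bs held 1 CACCC, 1 CCAAT and 1 TATAA, and Hbb-bt held 3, 3 and 1. Pf4 held a single CCAAT, and Ppbp held 2 TATAA. Over 32851 promoter windows of this length, 37.4% held CACCC, 24.5% held CCAAT, 14.2% held TATAA, 13.3% held GATAA and 9.23% held CCGGAA. A match is a description of the letters only. RefSeq promoters were matched for 7 of the 9 genes.

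On the control array 73.8% of 23470 gene probes lay above background and on the CKO array 73.6%, where background is the mean of 384 blank spots plus 2 SD. Blank spots averaged 67.2 (SD 1.17) and 69.3 (SD 1.45). Members ranged from below that level to 11691, under the brightest spots of 47899 and 45949. A single array for each genotype allows no test and gives no error across animals, which limits the precision of every value. These arrays give error within an array only. Ratios of probes of 1 gene differed by an SD of 0.13 (717 genes). The spot-to-spot error used below is the log2 SD of uncorrected positive control spots within each array, joined over the 2 arrays. It was 0.22 and 0.23 for the 2 kinds of positive control spots, and no differences between arrays were taken for it. Tnfaip3, which encodes A20, had deposited intensities of 41 (control) and 38 (CKO) and a log2 ratio of -0.07. The part of the transcript its probe reads is not known, so this does not check the label. All 12 measured hepatocyte markers were above background, with deposited intensities of 37445 and 36770 for albumin (Alb).

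Each member with signal was higher in the CKO liver on the normalized scale, by less than 2-fold. Of 8 genes with a probe, 7 lay above background on both arrays, all 7 with a positive log2 ratio of CKO over control, against 42.2% of all 14143 genes above background. The median ratio was 0.23 over these 7 members, 0.18 with Slc4a1 included, and -0.02 over all genes. None of the 7 was at least 2-fold apart, a size that 0.714% of all genes passed (0.636% on the higher and 0.0778% on the lower side). The ratios come from intensities to which an offset of 50 was added after background correction. That offset pulls the ratios of dim genes towards 0, and the deposited linear intensities, made without it, stand beside the ratio of each member and of many other genes. With normexp against the local background column of each spot, the ratios of Alas2 (-0.10), Pf4 (-0.01) and Ppbp (-0.15) had the opposite sign.

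**Figure D1:**
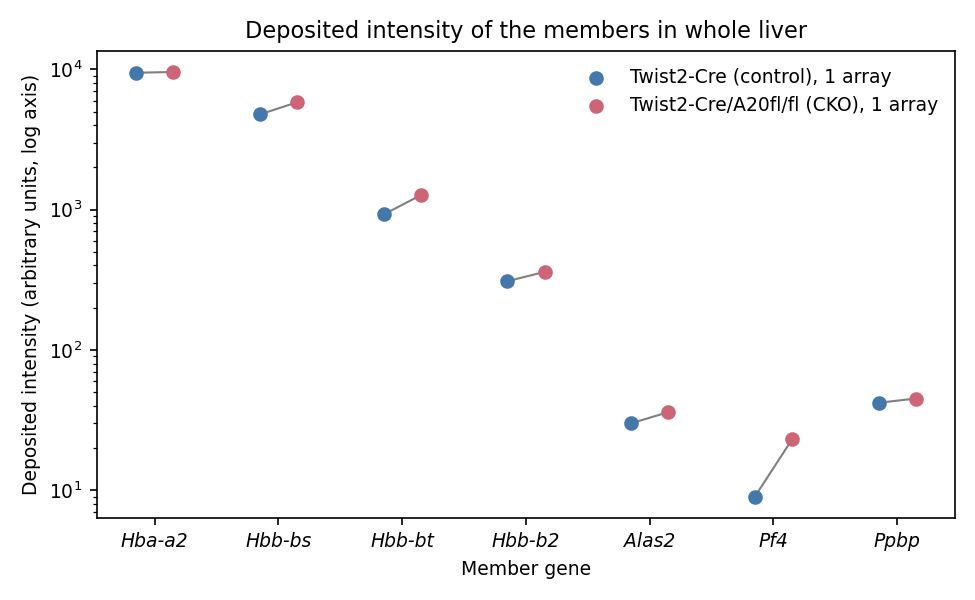
Deposited intensity (arbitrary units, log axis) of the 7 members listed on both arrays, with 1 point for the control array and 1 for the CKO array, joined per gene. Each CKO point is above its control point, from 9467 and 9585 for Hba-a2 to 9 and 23 for Pf4; no error bars are possible with 1 array each.

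The alpha globin gene Hba-a2 was near equal in both livers. Its deposited intensity was 9467 (control) and 9585 (CKO), a difference of 1.25%. Normalized log2 levels were 13.43 and 13.52. The ratio of 0.09 is below the spot-to-spot error, but it was 1.46 with the local background column. The coding copies Hba-a1 and Hba-a2 are near identical, so this probe may read both transcripts, and the split between them is uncertain.

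The beta globins were higher in the CKO liver, with Hbb-bt and Hbb-bs ahead. Hbb-bs, an adult beta chain gene of mice with the single haplotype, had deposited intensities of 4774 and 5830, 1.22-fold higher in the CKO liver, and a log2 ratio of 0.42. Its neighbour Hbb-bt had deposited intensities of 924 and 1269, or 1.37-fold, and a log2 ratio of 0.50. Both ratios exceeded the spot-to-spot error of 0.22 to 0.23. They also exceeded 1 SD of the ratios among the 708 genes of the brightest of 20 level classes (SD 0.34, median -0.03). Hbb-bs was at 0.34 under median scaling, about that SD, and at 0.29 in the deposited values, below it. Hbb-b2, the minor beta chain gene of the diffuse haplotype, had deposited intensities of 309 and 360 and a log2 ratio of 0.23, which is about the spot-to-spot error. It lay inside the spread of the 707 genes at its level (SD 0.40). The adult beta genes are close in sequence and the strain's haplotype is not given in the labels, so a probe may read its relatives too. The ratios of Hbb-bs and Hbb-bt were larger than that of Hba-a2 and had the same sign, and the difference could not be tested. With the local background column Hba-a2 instead had the largest of these ratios, at 1.46, against 0.67 for Hbb-bs and 0.79 for Hbb-bt.

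Embryonic and theta globins were at background on both arrays or nearly so. The embryonic beta-like genes Hbb-y and Hbb-bh1 lay within 1 SD of the blank spots on each array, at 0.59 and 0.72 SD above their mean in the control and 0.94 and 0.89 SD in the CKO liver. Theta globin Hbq1a was at -1.09 and 1.23 SD, and the alpha pseudogene Hba-ps4 at -0.46 and 0.20 SD. The embryonic alpha-like gene Hba-x only just passed the limit of 2 SD in the control and was at 1.17 SD in the CKO liver, and no fold is given for it.

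**Figure D2:**
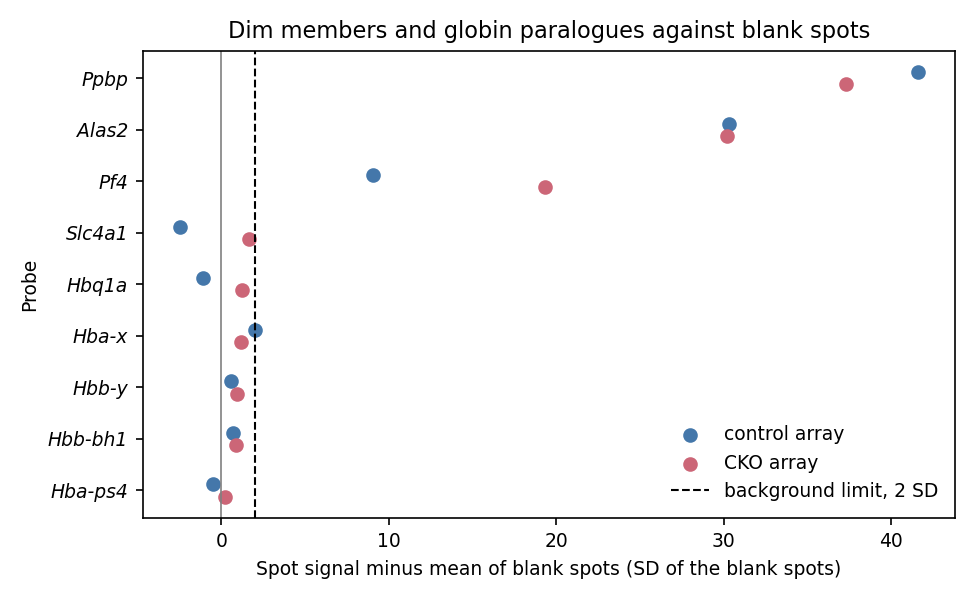
Spot signal above the mean of the blank spots, in SD of the blank spots (x axis), for the dim members and for 5 globin relatives on the control and CKO arrays. The dashed line is the background limit of 2 SD; Ppbp, Alas2 and Pf4 lie above it on both arrays, Slc4a1 on neither, and Pf4 moves from 9.06 to 19.3 SD.

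The other red cell members were dim. Alas2 had deposited intensities of 30 and 36 and a log2 ratio of 0.10, below the spot-to-spot error. Its spots were 35.4 and 43.7 above the blank mean before scaling. Slc4a1 was not above background on either array, at -2.48 SD (control) and 1.68 SD (CKO), and no fold is given. It is listed in the deposited values at 2 for the CKO liver only.

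The platelet chemokines differed from each other. Pf4 had deposited intensities of 9 (control) and 23 (CKO), 2.56-fold higher. The control value is near background, so this fold is not precise. With the local background column the log2 ratio of Pf4 was -0.01. In the deposited values 3.51% of all genes passed 2-fold on the higher side and 0.728% on the lower (4.24% in all). After subtraction of the blank mean its spot signal was 10.6 and 28.0. With that subtraction and quantile scaling its log2 ratio was 1.34, where 3.05% of all genes were at least 2-fold higher (3.64% past 2-fold on either side and 0.594% on the lower). On the offset scale its log2 ratio was 0.33, above the spread of the 707 genes at its level (SD 0.12). Its neighbour Ppbp had deposited intensities of 42 and 45, or 1.07-fold, and a log2 ratio of 0.05, inside the spread of its level class (SD 0.23). Pf4 was thus past 2-fold in the deposited values and Ppbp was not, though both are stored in the same granules, and the difference between them could not be tested. Which cells the Pf4 transcript came from was not tested.

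**Figure D3:**
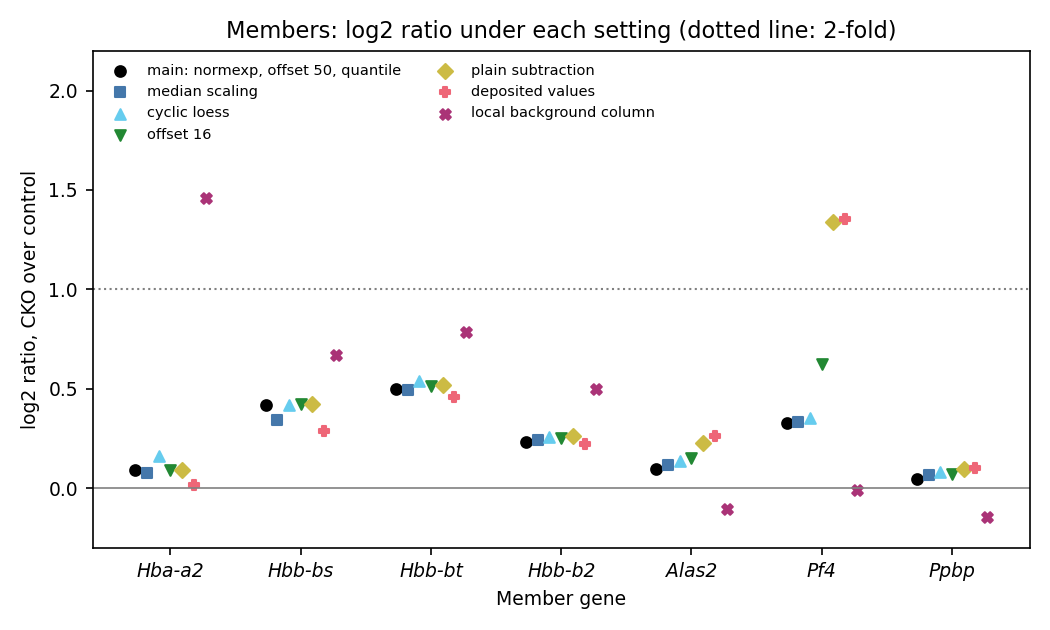
Log2 ratio of CKO over control (y axis) for the 7 members above background, under the main setting and 6 others, with the 2-fold line dotted. Hba-a2 is at 1.46 with the local background column, and Pf4 ranges from -0.01 to 1.35.

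Other genes of the red cell lineage were, as a group, near equal between the livers. Over 3 lists of membrane, regulatory and maturation genes, 59 of 67 genes other than the members had a probe and 47 lay above background on both arrays. Of these, 18 were higher and 29 lower with none past 2-fold, and their median of -0.02 (0.00 under cyclic loess) equalled that of all genes to this precision. Of all genes above background 42.2% were higher and 0.714% passed 2-fold, so most genes on the arrays were on the lower side too. Among the 11 membrane and skeleton genes 7 were lower (median -0.11), including the water channel Aqp1 (-0.41, deposited intensity 519 and 370), which liver endothelium and bile ducts also express, and the membrane protein Epb42 (-0.19, 30 and 21). Stom (0.21, 147 and 173) and the complement inhibitor Cd59a (0.15, 481 and 520) were on the other side, the latter at -0.24 with the local background column. Among the regulators, the erythroid master factors Gata1 (14 and 12) and Klf1 (6 and 7) were dim and within 0.07 of equality on the log2 scale.

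Among all 12 regulatory genes above background the median was -0.02, with 5 higher and 7 lower. The largest ratios were those of the haematopoietic cofactor Lmo2 (0.39, deposited intensity 45 and 72), the GATA partner Zfpm1 (-0.18), the transferrin receptor Tfrc (-0.12) and the erythropoietin receptor Epor (-0.11, 16 and 12). Of 24 maturation and metabolism genes 9 were higher and 15 lower, with a median of -0.01 that lay on the other side of 0 under median scaling, cyclic loess and the local background column. They included the haem synthesis enzyme Alad (-0.41, 1307 and 921), Mkrn1 (0.25), Tspan33 (-0.23) and the peroxidase Prdx2 (-0.19), of which Alad was at 0.39 with the local background column. Alad and the peroxidase are also made by hepatocytes.

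Most other platelet and megakaryocyte genes were near equal or too dim to compare. Of 31 such genes other than the members, 28 had a probe and 19 lay above background on both arrays, with 10 higher, 9 lower and a median of 0.00. The only one past 2-fold on the offset scale was the kinase substrate Plek (1.15, deposited intensity 15 and 88), which leukocytes also express. In the deposited values 3 of the 19 were past 2-fold higher, against 3.51% of all genes. They were Plek and the near-background Gp9 and Itga2b given below. On the offset scale next came the podoplanin receptor Clec1b (0.69, 76 and 148), which Kupffer cells also carry, the G protein subunit Gng11 (-0.51, 219 and 139) and the tetraspanin Cd9 (0.38). With the local background column Clec1b (-0.24) and Cd9 (-0.27) had the opposite sign. Genes nearly restricted to platelets were close to background: the integrin chain Itga2b was at 2 and 4, the glycoproteins Gp9 at 2 and 6, Gp5 at 3 and 3 and Gp1bb at 16 and 14, Treml1 at 3 and 4 and the tubulin Tubb1 at 4 and 3. These deposited intensities are those of the control and the CKO liver in turn, and they lie too near background for a fold to be precise.

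The CXC genes beside Pf4 and Ppbp differed among themselves. The cluster order is Cxcl5, Ppbp, Pf4, Cxcl3, Cxcl15 and Cxcl1. On the offset scale Cxcl1 was 2.85-fold higher, a log2 ratio of 1.51. In the deposited values (51 and 228) its log2 ratio was 2.16. Cxcl3 was near equal (-0.05, 23 and 21, but 0.05 with the local background column). Cxcl5 and Cxcl15 were not above background on either array. Cxcl2 was above it on the CKO array alone and at least 1.15-fold higher on the offset scale.

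**Figure D4:**
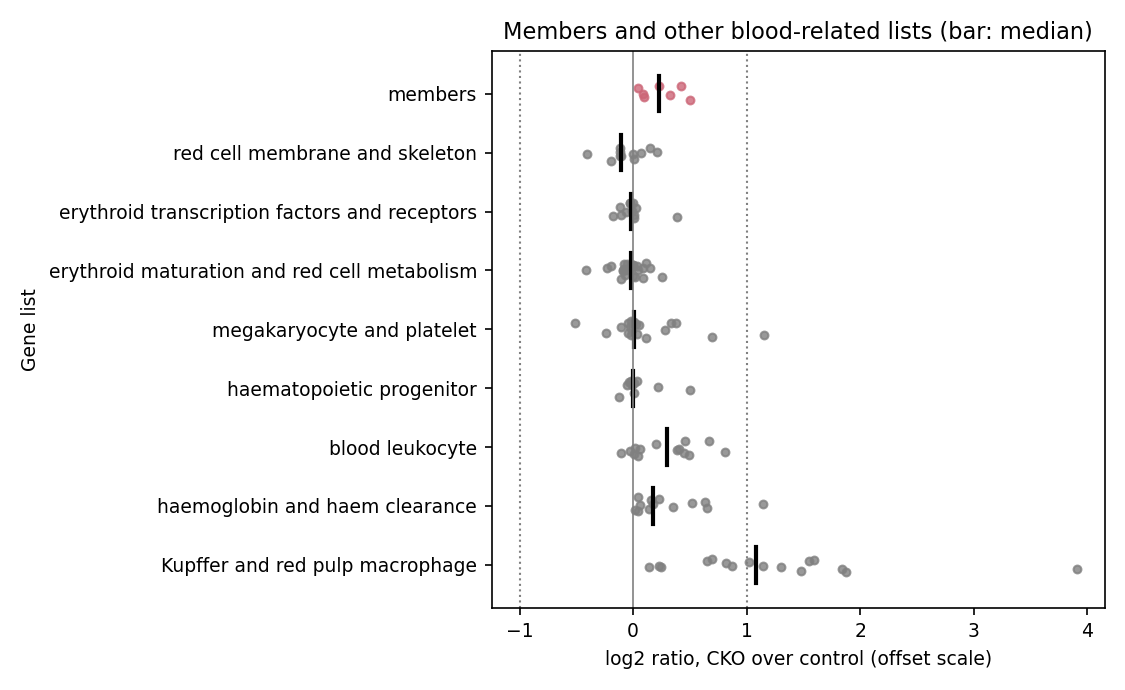
Log2 ratio of CKO over control on the offset scale (x axis) for genes above background on both arrays, by list (y axis), with each list's median as a bar and the 2-fold lines dotted. The 3 erythroid lists and the platelet list are centred near 0, the members at 0.23, the blood leukocyte list at 0.29 and the macrophage list at 1.08.

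Markers of other blood and tissue cells are given because blood left in the liver would carry leukocytes together with red cells and platelets. Of 20 measured blood leukocyte markers 14 lay above background on both arrays. Of these, 12 were higher in the CKO liver, against 42.2% of all genes above background, with a median of 0.29. On the offset scale no marker passed 2-fold, a size that 0.714% of all genes passed. The deposited values had 5 markers past 2-fold higher, against 3.51% of all genes, and a median of 0.42. Plain subtraction gave a median of 0.52, and the local background column gave 0.04. Their summed deposited intensity over all probes of the 20 was 1056 (control) and 1677 (CKO). Most of that rise came from Ly6c2 alone, whose 2 probes averaged 196 and 404. The pan-leukocyte phosphatase Ptprc (0.81, 31 and 88) and the neutrophil protein S100a9 (0.67, 15 and 50) led. The CD8 chain Cd8a (0.49) and the monocyte antigen Ly6c2 (0.45) followed, each the mean of 2 probes that differed. The brighter Cd8a probe was at 0.91. Cd8a was at 2.64 in the deposited values, from the single probe listed there on both arrays. The brighter Ly6c2 probe was at 1.17, so its other probe was on the lower side. The neutrophil antigen Ly6g was near equal (356 and 345). Ptprc was at -0.04 with the local background column. Cd3e was not above background on either array. The part of leukocytes in the globin and Pf4 values was not tested.

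Progenitor markers lay on both sides. Of 17 measured genes 10 lay above background on both arrays, 5 higher and 5 lower, with a median of 0.00. Of all genes above background 42.2% were higher. The largest ratios were those of the myeloid factor Spi1 (0.50, deposited intensity 23 and 51), Cebpe (0.22, but -0.11 with the local background column), Hlf (-0.12) and the protease Ctsg (-0.05). The stem cell receptor Kit had 7 and 8 and Cd34 had 9 and 8, and the granule protease Elane had 4 and 4. Mpo was above background on the CKO array alone.

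Genes that clear haemoglobin and haem were on the higher side. Each of the 13 measured had a positive ratio, against 42.2% of all genes above background, with a median of 0.18. Of the 13, 1 passed 2-fold, a size that 0.714% of all genes passed. The clearance gene past 2-fold was haem oxygenase Hmox1, which opens the haem ring (1.14, deposited intensity 210 and 510). The red pulp macrophage factor Spic (0.65, 6 and 36), the haemoglobin scavenger haptoglobin Hp (0.63, 7864 and 11054) and the haem scavenger hemopexin Hpx (0.52, 15851 and 21001) followed. With the local background column 9 of the 13 were higher and Hp was at -0.02. Hp and Hpx are acute phase proteins of hepatocytes as well, and Hmox1 and Spic are macrophage genes. All 16 macrophage markers above background on both arrays had positive ratios, 9 of them past 2-fold, with a median of 1.08. In the deposited values 12 were past 2-fold higher, against 3.51% of all genes, and the median was 1.47. With the local background column 13 of 16 were higher and the median was 0.58. The list had a summed deposited intensity over the 17 measured of 3231 and 10440. Marco (3.91), Vcam1 (1.87), Lyz2 (1.84) and C1qa (1.60) led that list. The part of macrophages in the haem clearance and Pf4 values was not tested.

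Regulators of red cell formation were on both sides. Of 15 above background 10 were lower, with a median of -0.07, where 42.2% of all genes above background were higher. The iron hormone hepcidin, Hamp, was just past 2-fold lower (-1.02, or -0.97 under cyclic loess, deposited intensity 12677 and 5842), and the cytokine inhibitor Socs3 (-0.56, 1283 and 816), the oxygen sensor Egln3 (-0.45, 79 and 45) and the iron signal Bmp6 (-0.29, 101 and 74) followed. Erythropoietin, Epo, was near background at 2 and 3, and erythroferrone, Erfe, the red cell precursors' signal to lower hepcidin, at 5 and 4. Hepatocyte markers had a median of 0.02 over 12 genes, from Tat (-0.42), Ass1 (-0.22) and Apob (-0.16) to Hnf4a (0.33). That median was -0.03 under median scaling and -0.15 with the local background column. Of 10 endothelial markers 2 were higher and 8 lower, where 42.2% of all genes were higher. The endothelial median was -0.12 (Oit3 -0.64, Clec4g -0.48, Kdr -0.43, Stab1 -0.29). Plain subtraction gave a median of -0.38 and the deposited values -0.39. The local background column gave -0.04, and there 5 of the 10 were lower.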

How the data were processed

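Expression was measured in liver RNA of 1 control and 1 CKO sample. Amplified amino allyl RNA was coupled to Cy5 and fragmented, per the labels' protocols. Per the file headers, the scanner files hold each spot's median intensity and local background at 1 wavelength, joined over 3 gains. The deposited value table holds intensity on a linear scale. No source states its making. A check on the values gave the spot minus the 5% trimmed blank mean times 0.859 (control) or 0.825 (CKO), within 3.52 and 0.514, with a median of 25 on both arrays. Direction is not in question, since each column is 1 sample.

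Spots were corrected with normexp (limma 3.58.1, R 4.3.3) against the mean of the blank spots, with an offset of 50, then scaled by quantiles and taken to log2. The local background column was not used because it followed the spot's own signal (r = 0.988 control, 0.972 CKO, across spots). Flagged spots (4 on the control array) and control spots were left out. Of the gene probes, 20687 had 1 symbol and 2783 none; a gene was the mean of its probes. A gene above background on a single array was given as a bound. The procedure was tested on simulated arrays.

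The members and lists were chosen with earlier results of these data known. Named genes were the members and, per list, up to 4 others with the largest absolute ratio. The markers listed as defining, and Alb, Ly6g, Epo, Erfe and the genes named as not above background, were added beside them; Hba-ps4, Epo and Erfe were chosen after their values were seen. Motifs were chosen with the promoters in view. With 2 arrays, no gene could be ranked by likeness of pattern. Alternatives were median scaling, cyclic loess, an offset of 16, plain subtraction of the blank mean, the local background column, the deposited values, the brightest probe, and other filters on dim genes.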

Additional observations from a re-analysis of the deposited data

Results flagged for a closer look

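The local background column, which the main values do not use, carried signal around the globin spots far above that around blank spots (mean 57.7 control, 61.4 CKO). Around Hba-a2 it was 9153 (control) and 4325 (CKO), around Hbb-bs 3255 and 1682, around Hbb-bt 696.9 and 371.8, and around Hbb-b2 292.6 and 155.8. It was thus 1.87-fold to 2.12-fold lower on the CKO array at all 4 globin spots, while the spots themselves were brighter there. As a share of the spot's own signal it went from 82.6% to 37.0% for Hba-a2 and from 57.9% to 23.6% for Hbb-bs. Over 965 gene spots brighter than 1000 on both arrays the median share was 75.4% (control) and 57.8% (CKO), and 17.5% of them had a drop in local background as large as that of Hbb-bs. The cause was not tested.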

How the results depend on the processing

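No paired analysis was possible because each genotype had 1 array. With 1 array there was also no leaving out of a replicate. The count of members past 2-fold, 0 on the offset scale, was 1 with plain subtraction (Pf4), 1 in the deposited values (Pf4) and 1 with the local background column (Hba-a2), and stayed 0 under the other alternatives. The count of all genes past 2-fold, 101, was 200 with an offset of 16, 515 with plain subtraction followed by quantile scaling, 600 in the deposited values and 610 with the local background column. A smaller offset or none shrinks dim genes less. The members' median ratio, 0.23, was 0.50 with the local background column and between 0.16 and 0.26 elsewhere. The median of the other platelet genes was 0.34 over the 7 in the brighter part of the array (at least the median level), a smaller set, against 0.00 over 19. The median of the other erythroid genes moved by less than the SD between probes of a gene (0.13) under every alternative run. Of 54 named genes, none had the opposite sign under median scaling, cyclic loess, an offset of 16, plain subtraction or the brightest probe, nor did any of the 53 listed on both arrays in the deposited values. With the local background column 11 did, Alas2, Pf4 and Ppbp among them. Slc4a1 was not above background on either array, so no ratio of its own is given. It is included in the members' median of 0.18 and among the 54 named genes.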
